A study of Mus musculus with 9 samples.

Results

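The Nr4a genes encode the 3 orphan nuclear receptors NUR77 (Nr4a1), NURR1 (Nr4a2) and NOR1 (Nr4a3), and Gt(ROSA)26Sor is the locus into which the Nr4a2 transgene of this mouse line was inserted. Regions of the deposited ChIP-seq table that touch the RefSeq span of 1 of these 4 genes (build GRCm38), extended by 10 kb on either side, were taken as members. There were 11 such regions out of 16884. Nr4a2 had 4 regions, Nr4a1 had 2, Nr4a3 had 2 and Gt(ROSA)26Sor had 3.

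Chromatin of heart ventricle was immunoprecipitated with an antibody against NR4A2 and sequenced. The NR4A2 hearts came from 3 Nr4a2-icTg mice, which carry the ROSA26 knock-in EGE-GJ-095 for conditional Nr4a2 together with αMHC-MerCreMer, a tamoxifen-activated Cre recombinase driven by the cardiomyocyte promoter of Myh6. The Control hearts came from 3 littermates with αMHC-MerCreMer, and the labels do not say which ROSA26 alleles they carry. All mice were 8 to 9 weeks old when injected once with 40 mg/kg tamoxifen, and the libraries are labelled day 3. Mice are the replicates, n = 3 in each group throughout. The values are CPM, the reads of a region scaled to a common total of reads in all listed regions, as the authors deposited them. The reads behind them numbered 637635 to 1035856 in NR4A2 hearts and 549700 to 1027394 in Control hearts, so that 1 read is worth 0.955 to 1.81 CPM.

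NR4A receptors bind DNA as monomers at the NBRE element, or as dimers with each other or with retinoid X receptors, and they act without a classical ligand. Their genes are immediate early genes: cyclic AMP, calcium and growth factor signals switch them on within minutes, largely through CREB and MEF2 at their promoters. In the heart and in skeletal muscle, adrenergic stimulation and exercise are known inducers. ROSA26 is a widely used insertion site because its promoter is active in nearly all tissues.

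The promoters of the Nr4a genes are shown because a ChIP region lay over the whole of the Nr4a1 promoter and over part of the other ones. RefSeq windows from 250 bases before to 50 bases after the gene start were available for 3 of the 4 members (GRCm38.p6), Gt(ROSA)26Sor being the one without an entry. Capitals mark TGACG, the core of the cyclic AMP response element bound by CREB, on either strand (CGTCA on the opposite one). In Nr4a1 each mark is lengthened to TGACGCA (printed as TGCGTCA), and in Nr4a2 capitals also mark TATTTATA, an AT-rich match to the kind of site MEF2 binds.
Nr4a2 promoter, chr2:57123954-57124253, minus strand: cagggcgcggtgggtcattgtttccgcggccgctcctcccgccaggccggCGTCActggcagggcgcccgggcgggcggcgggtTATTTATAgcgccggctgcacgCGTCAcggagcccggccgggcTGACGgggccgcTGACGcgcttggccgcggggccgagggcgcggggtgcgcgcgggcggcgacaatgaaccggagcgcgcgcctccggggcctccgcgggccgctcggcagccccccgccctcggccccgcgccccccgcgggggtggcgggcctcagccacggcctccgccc
Nr4a1 promoter, chr15:101266596-101266895, plus strand: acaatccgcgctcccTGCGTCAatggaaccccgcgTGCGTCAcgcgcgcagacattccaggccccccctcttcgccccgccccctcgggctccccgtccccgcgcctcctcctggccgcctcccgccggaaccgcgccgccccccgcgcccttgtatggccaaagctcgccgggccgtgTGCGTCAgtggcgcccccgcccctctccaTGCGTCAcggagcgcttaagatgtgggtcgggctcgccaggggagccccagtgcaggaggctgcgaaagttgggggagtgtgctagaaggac
Nr4a3 promoter, chr4:48045055-48045354, plus strand: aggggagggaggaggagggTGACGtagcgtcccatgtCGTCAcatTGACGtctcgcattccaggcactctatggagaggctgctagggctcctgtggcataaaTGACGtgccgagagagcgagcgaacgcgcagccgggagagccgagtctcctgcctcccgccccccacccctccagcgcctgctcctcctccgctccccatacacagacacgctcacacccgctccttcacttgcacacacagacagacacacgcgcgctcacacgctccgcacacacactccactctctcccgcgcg

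Each of the 3 promoters holds 4 copies of TGACG. Among all 32851 RefSeq promoter windows of this length, 20.8% hold at least 1 copy and 76 windows (0.231%) hold 4 or more. In Nr4a1 the 4 copies are all TGACGCA, a motif present in 2.12% of windows, and Nr4a1 has the only window of the 32851 with 4 of them. TATTTATA occurs in Nr4a2 and in 1.70% of windows. Neither the palindromic full element TGACGTCA (1.79% of windows), nor the NBRE AAAGGTCA (1.51%), nor its core AGGTCA (16.3%), which lies within the NBRE, occurs in the 3 windows. All searches covered both strands. A match is a description of letters and not a bound site.

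Across all regions, signal was called higher in NR4A2 hearts in 14.7% and lower in 3.17% (limma, Benjamini-Hochberg adjusted p under 0.05 over the whole table), that is in 2475 and 536 regions. With recovered reads and no scaling for depth, edgeR called 1420 and 17. That setting leaves the depth differences among libraries of the same group in the values. A call lost under it therefore says little about a region. Of the 11 member regions, 4 were called higher and 1 lower. The 4 higher regions all lay within Nr4a2 and Gt(ROSA)26Sor, and the lower one at the Nr4a1 promoter. In 5 of the 11 regions every NR4A2 heart was above every Control heart, a pattern found in 19.9% of all regions, and in 1 every NR4A2 heart was below, as in 11.7% of all regions. The median log2 fold change was -0.09 over the 11 regions and -0.06 over the whole table. A fold change here is the mean log2(CPM + 1) of NR4A2 hearts minus that of Control hearts.

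**Figure D1:**
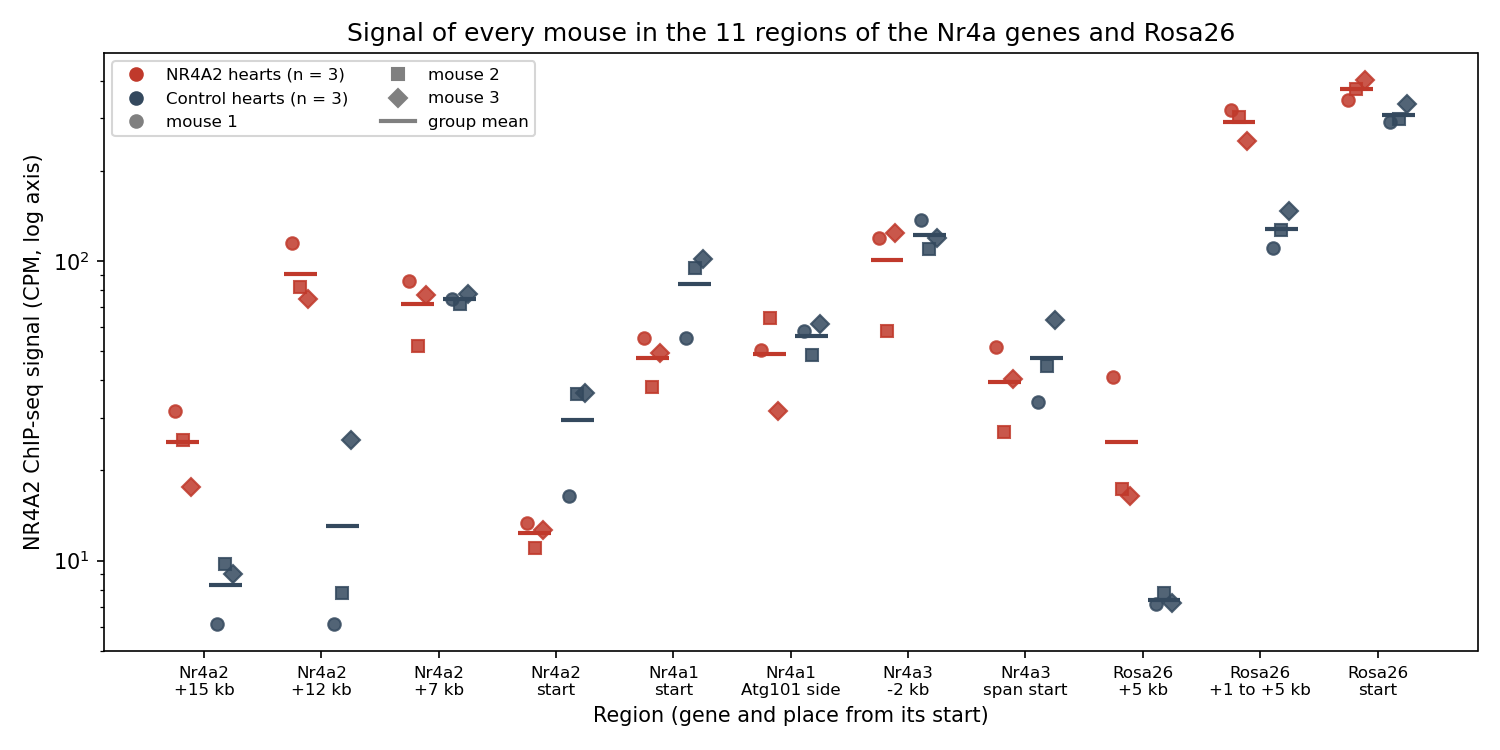
NR4A2 ChIP-seq signal (CPM, log axis) of every mouse in the 11 regions, named by gene and place from its start; symbols are the mice, bars the group means, with n = 3 in each group. NR4A2 and Control hearts separate most widely about 12 kb into Nr4a2, where the lowest NR4A2 heart had 74.4 CPM and the highest Control heart 25.3 CPM.

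Along Nr4a2, the gene whose product was immunoprecipitated, signal rose far into the gene and not at its start. The gene spans chromosome 2, 57106830 to 57124003, on the minus strand, so that transcription runs towards lower coordinates. The annotation used gives neither exons nor introns, and regions are placed by their distance from the start. The strongest gain among the 11 regions was at 57111638 to 57112257, 11746 to 12365 bp downstream of the start. That region had 114.6, 82.0 and 74.4 CPM in NR4A2 hearts 1 to 3, against 6.15, 7.79 and 25.3 CPM in Control hearts 1 to 3. All NR4A2 hearts were well above all Control hearts, of which mouse 3 was the highest. The means were 90.3 ± 21.3 CPM in NR4A2 hearts and 13.1 ± 10.6 CPM in Control hearts (SD), a log2 fold change of 2.92 ± 0.37 (SE, limma adjusted p = 8.90e-09). This gain ranks 207 among the 16884 regions. It ranged from 2.56 to 3.50 on the log2 scale when 1 mouse was left out, and it was the one member call that held without scaling for depth (edgeR, adjusted p = 6.55e-06).

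A second region nearer the far end of Nr4a2, at 57108341 to 57108700 and 15303 to 15662 bp from the start, also rose. It had 31.5, 25.2 and 17.7 CPM in NR4A2 hearts, against 6.15, 9.73 and 9.05 CPM in Control hearts. The groups did not overlap, but the signal is weak: it rests on 14 to 33 reads per NR4A2 library and 5 to 10 reads per Control library. The log2 fold change was 1.46 ± 0.51 (SE, limma adjusted p = 0.0340). The adjusted p was 0.165, 0.109 and 0.102 with NR4A2 mouse 1, NR4A2 mouse 2 and Control mouse 1 left out in turn, so that each of these mice decided the call.

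The remaining pair of Nr4a2 regions did not rise. At 57116606 to 57117270, 6733 to 7397 bp into the gene, NR4A2 hearts had 85.9, 52.0 and 76.9 CPM and Control hearts 74.8, 72.0 and 77.8 CPM. The groups overlapped, with NR4A2 hearts both above and below all Control hearts, and the log2 fold change was -0.09 ± 0.24 (SE, limma adjusted p = 0.837). In Control hearts this was the strongest of the 4 regions per length, at 113 CPM per kb. At the start itself, 57123820 to 57124137, a region that covers part of the promoter printed above and also touches LOC105244150, NR4A2 hearts had 13.4, 11.03 and 12.6 CPM and Control hearts 16.4, 36.0 and 36.2 CPM. Every NR4A2 heart was below every Control heart, Control mouse 1 lying close to the NR4A2 hearts. The log2 fold change of -1.12 ± 0.45 (SE) missed the threshold (limma adjusted p = 0.0736). The authors' deposited table calls this region down-regulated, with a log2 fold change of -1.22 and an FDR of 0.0436, a call it gives to 1.95% of all regions. Among the alternative settings used here, only limma without Control mouse 1 was past the threshold (-1.48, adjusted p = 0.0320). The adjusted p was 0.0520 with edgeR and 0.0894 with DESeq2. With any other mouse left out, it was 0.101 to 0.286 in limma. The region rests on 7 to 14 reads per NR4A2 library and 16 to 37 reads per Control library.

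**Figure D2:**
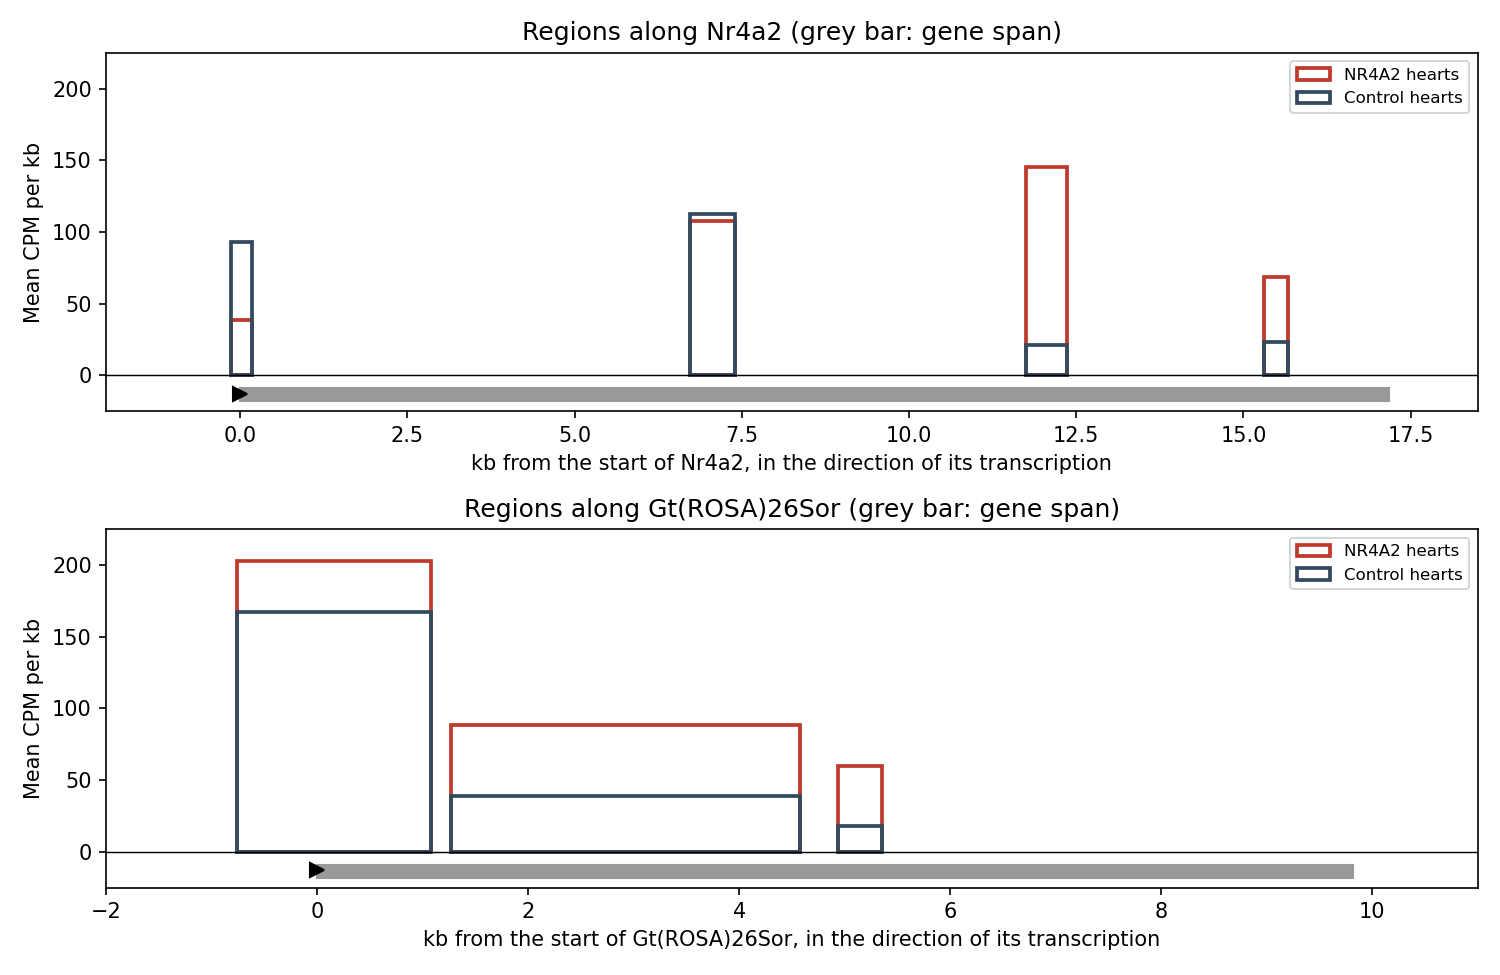
Mean CPM per kb of each region along Nr4a2 (top) and Gt(ROSA)26Sor (bottom), against the distance in kb from the gene start in the direction of transcription; outlines are the means of 3 NR4A2 and 3 Control hearts. NR4A2 hearts had 146 CPM per kb about 12 kb into Nr4a2, where Control hearts had 21.1 CPM per kb.

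Reads from the knock-in copy and from the native gene cannot be told apart where they share sequence, since the reads were aligned to the mouse genome, in which Nr4a2 is represented at its native place. The source of the gain within Nr4a2 was not tested.

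At Gt(ROSA)26Sor, signal rose over the body of the locus, while the region at its promoter was not called. This non-coding gene spans chromosome 6, 113067428 to 113077244. RefSeq lists it as the antisense RNA of the plus-strand gene Thumpd3, so its start is the end that lies beside Setd5, a gene of a SET-domain protein. The 3 regions follow each other at gaps of 366 and 190 bp. The longest covers 3304 bp, from 113072670 to 113075973, that is 1271 to 4574 bp downstream of the start. It had 319, 303 and 252 CPM in NR4A2 hearts, against 111, 127 and 147 CPM in Control hearts. Every NR4A2 heart was above every Control heart, and the spread within each group was small beside the difference. Means were 291 ± 34.7 CPM in NR4A2 hearts and 128 ± 18.02 CPM in Control hearts (SD), a log2 fold change of 1.18 ± 0.17 (SE, limma adjusted p = 1.01e-07). Leaving out 1 mouse gave 1.08 to 1.29, called each time. Without scaling for depth the value was nearly the same, 1.19, and not called (edgeR adjusted p = 0.0587), with depth differences left in.

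The neighbouring region at 113071887 to 113072303, 4941 to 5357 bp from the start, had 41.1, 17.3 and 16.4 CPM in NR4A2 hearts, against 7.17, 7.79 and 7.24 CPM in Control hearts. NR4A2 mouse 1 was far above the other NR4A2 hearts, which in turn were above all Control hearts. The log2 fold change was 1.501 ± 0.54 (SE, limma adjusted p = 0.0382), on 11 to 43 reads per NR4A2 library and 4 to 8 reads per Control library. On leaving out NR4A2 mouse 1 it was 1.09 (adjusted p = 0.297), and without Control mouse 1, 2 or 3 the adjusted p was 0.0703, 0.0602 and 0.0522.

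The region over the start of Gt(ROSA)26Sor, 113076164 to 113078002, which also touches Setd5, was the strongest of the 11. It had 346, 374 and 401 CPM in NR4A2 hearts, against 291, 298 and 335 CPM in Control hearts. Every NR4A2 heart was above every Control heart by a small margin, since the lowest NR4A2 heart and the highest Control heart differed little. The log2 fold change of 0.28 ± 0.15 (SE) missed the threshold (limma adjusted p = 0.226). Per length it had 203 CPM per kb in NR4A2 hearts and 167 CPM per kb in Control hearts. NR4A2 hearts carry the knock-in at this locus, and the labels do not give the ROSA26 alleles of Control hearts. Whether the alleles differ between the groups is therefore not known, and the source of the gain at Gt(ROSA)26Sor was not tested.

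Differences were unequal along both loci, and a ratio taken within each mouse describes this free of library scaling. This ratio was chosen after the values had been seen. It sets regions called higher in these same libraries over a region not called higher, so separation of the groups follows from that choice. Across the table, 19.9% of regions in coding spans away from promoter windows were higher. Of regions touching promoter windows, 1.48% were. At Nr4a2, the summed CPM of the 3 regions downstream of the start was 17.4, 14.4 and 13.4 times that of the start region in NR4A2 hearts, against 5.31, 2.49 and 3.10 times in Control hearts. At Gt(ROSA)26Sor, the summed CPM of the 2 downstream regions was 1.04, 0.857 and 0.670 times that of the start region in NR4A2 hearts, against 0.405, 0.451 and 0.459 times in Control hearts. In both loci all NR4A2 hearts were above all Control hearts. The log2 differences were 2.12 ± 0.34 at Nr4a2 and 0.94 ± 0.19 at Gt(ROSA)26Sor (SE, two-sided exact permutation p = 0.1 for each, the smallest that 3 against 3 mice allow). NR4A2 mouse 1 had the highest CPM of all mice in each of the 4 regions called higher at these loci. Its share of CPM in the other higher regions of the table was 12.5%, the lowest among NR4A2 hearts. The share was 13.2 and 15.1% in NR4A2 mice 2 and 3 and 4.56 to 5.09% in Control hearts. Those regions were called higher in these same libraries, so the gap between the groups in this share follows from their selection.

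**Figure D3:**
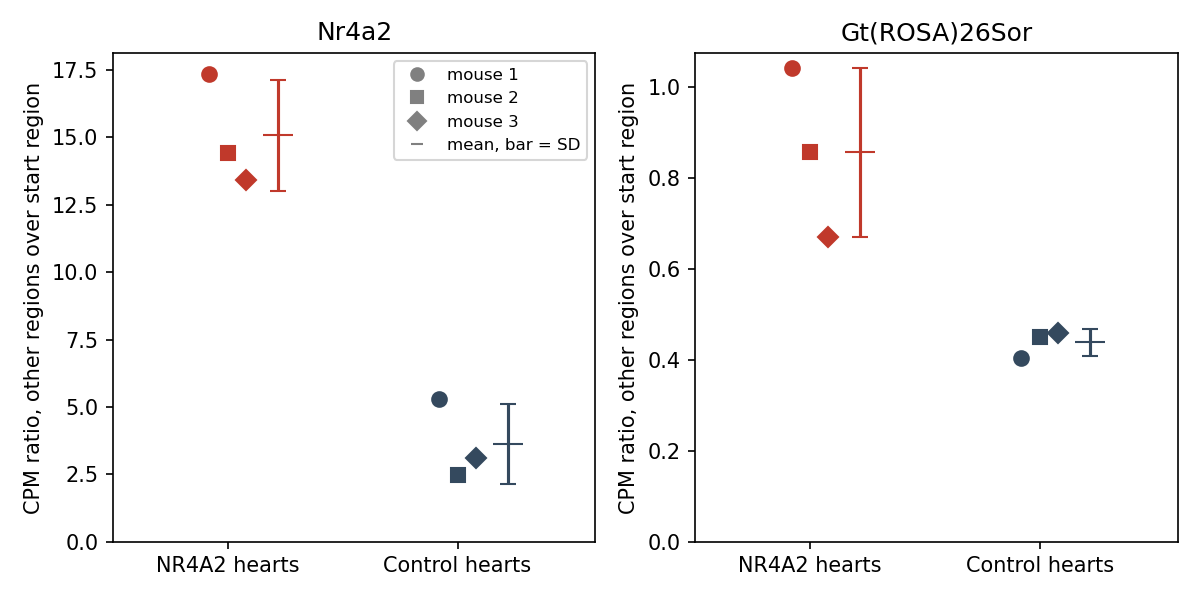
Ratio of CPM in the regions downstream of the start to CPM in the region at the start, per mouse, at Nr4a2 and Gt(ROSA)26Sor; symbols are mice, and the bar beside them is the mean with its SD (n = 3 each). The ratio averaged 15.1 in NR4A2 hearts and 3.63 in Control hearts at Nr4a2, and 0.856 in NR4A2 hearts and 0.438 in Control hearts at Gt(ROSA)26Sor.

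Nr4a1 had no higher region, and signal at its promoter was lower. NUR77, its product, is the family member best known from exercised and adrenergically stimulated muscle. The region at chromosome 15, 101266492 to 101267024, holds the gene start and the whole promoter printed above with its 4 TGACGCA copies. It had 55.4, 37.8 and 49.2 CPM in NR4A2 hearts, against 55.3, 94.4 and 101 CPM in Control hearts. The groups overlapped, because Control mouse 1 was level with NR4A2 mouse 1. Means were 47.5 ± 8.90 CPM in NR4A2 hearts and 83.7 ± 24.8 CPM in Control hearts (SD), a log2 fold change of -0.77 ± 0.26 (SE, limma adjusted p = 0.0241). The call ended without NR4A2 mouse 2 or 3 or Control mouse 2 or 3 (adjusted p of 0.108, 0.0704, 0.137 and 0.141) and with DESeq2 (0.0679). It held with edgeR (adjusted p = 0.0166). The authors' deposited table calls the region down-regulated (FDR of 0.0182), as it does 1.95% of all regions. The other region near Nr4a1, 9170 bp beyond its far end at 101283965 to 101284499, lies over the promoter of the autophagy gene Atg101. It had 50.6, 64.6 and 31.5 CPM in NR4A2 hearts and 58.4, 48.7 and 61.5 CPM in Control hearts, which overlapped (log2 fold change -0.25 ± 0.28 SE, limma adjusted p = 0.612).

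Nr4a3, on chromosome 4 from 48045078 to 48086447, had regions before its start site and none along its body. The nearer region touches the edge of the RefSeq span but ends 118 bp before the start site used for the promoter. The region upstream, 48042868 to 48043666, had 119, 58.3 and 124 CPM in NR4A2 hearts, against 137, 110.0 and 119 CPM in Control hearts. NR4A2 mouse 2 was low there and the other mice overlapped, with a log2 fold change of -0.35 ± 0.22 (SE, limma adjusted p = 0.288) that became -0.0032 without NR4A2 mouse 2. The region over the start of the span, 48044597 to 48045187, which reaches into the printed promoter, had 51.6, 26.8 and 40.4 CPM in NR4A2 hearts, against 33.8, 44.8 and 63.4 CPM in Control hearts. The groups overlapped again (log2 fold change -0.25 ± 0.31 SE, limma adjusted p = 0.641).

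**Figure D4:**
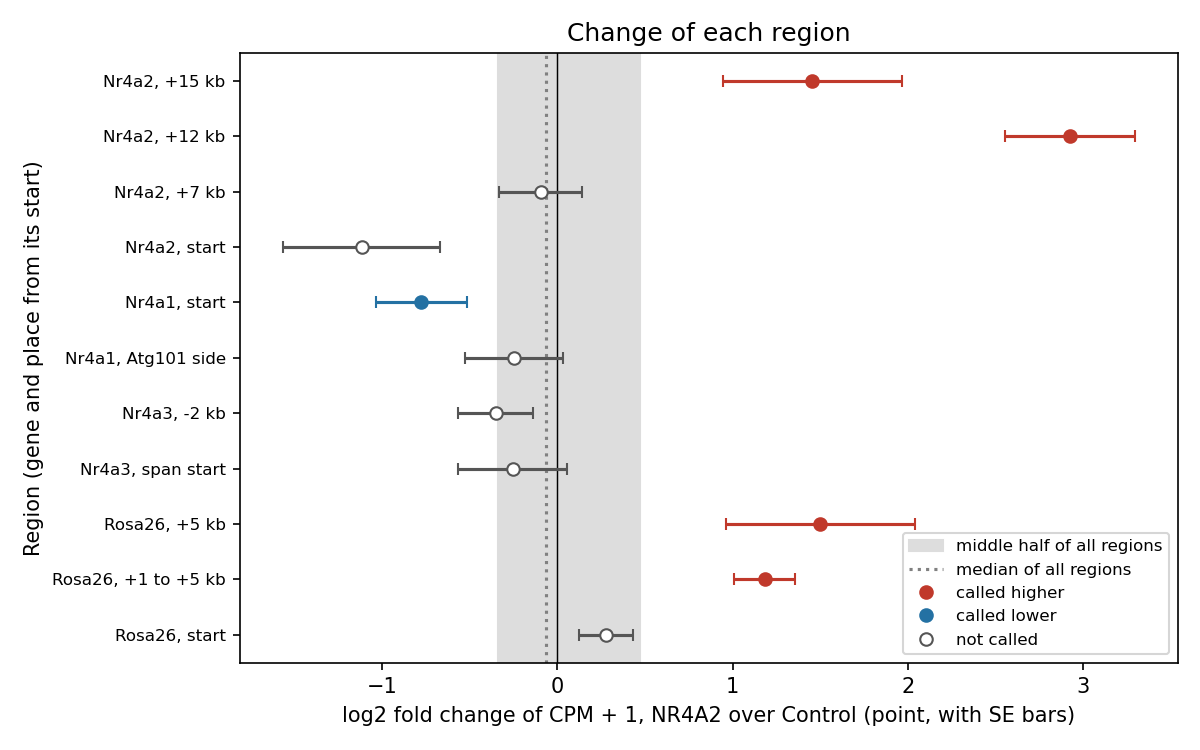
Log2 fold change of CPM + 1, NR4A2 over Control, of the 11 regions (points, with SE bars; filled where called); the grey band is the interquartile range of all regions and the dotted line their median. The 4 regions called higher, at 1.18 to 2.92, lie right of the band, and the starts of Nr4a1 and Nr4a2, at -0.77 and -1.12, lie left of it.

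Summed over all regions of a gene, the NR4A2 hearts lay above the Control hearts at Nr4a2 and Gt(ROSA)26Sor and below them at Nr4a1, without overlap of the groups. Nr4a2 summed to 245, 170.2 and 182 CPM in NR4A2 hearts and 103, 126 and 148 CPM in Control hearts (log2 difference 0.66 ± 0.22 SE). Gt(ROSA)26Sor summed to 706, 694 and 670 CPM in NR4A2 hearts and 409, 432 and 489 CPM in Control hearts (0.64 ± 0.08). Nr4a1 summed to 106, 102 and 80.7 CPM in NR4A2 hearts and 114, 143 and 163 CPM in Control hearts (-0.53 ± 0.20). Each of these 3 has a two-sided exact permutation p = 0.1, the smallest the design allows. At Nr4a2 the separation needs the region 11746 to 12365 bp from the start, without which the sums of the groups overlap. The Nr4a2 sum is therefore no gain along the whole gene. At Nr4a1 the separation needs the region over the Atg101 promoter: its promoter region alone overlapped between the groups (log2 difference -0.79, exact permutation p = 0.2). Nr4a3 summed to 171, 85.1 and 164 CPM in NR4A2 hearts and 171, 155 and 183 CPM in Control hearts (-0.34 ± 0.33, exact permutation p = 0.4). Sums over different numbers and lengths of regions do not rank the genes.

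The member regions can be set beside regions of like position, with limits. Gt(ROSA)26Sor is non-coding and has no promoter window, so its regions downstream of the start belong to neither class below. Nor does the region upstream of Nr4a3. Of 6466 regions that touch any RefSeq promoter window, 1.48% were higher and 4.31% lower, with a median log2 fold change of -0.18. Of 7061 regions within protein-coding spans and away from promoter windows, 19.9% were higher and 2.65% lower, with a median of 0.10. The starts of Nr4a1 and Nr4a2 rank 769 and 163 from the lowest log2 fold change of the whole table. The Nr4a2 start was not called, and its rank rests on 7 to 14 reads per NR4A2 library and 16 to 37 per Control library. The 5 further regions within 50 kb of the 4 genes were not called (limma adjusted p 0.256 to 0.813). Other genes within 10 kb of a member region were Thumpd3 and Setd5 at Gt(ROSA)26Sor, LOC105244150 and the non-coding BB557941 at Nr4a2, and Atg101 and Smim41 at Nr4a1. In bulk ventricle, a change in the number of cells with signal and a change in signal per cell cannot be told apart.

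The Myh6 gene was the one whose promoter drives Cre in both groups. The region that touches it, 34918 bp long on chromosome 14, also touches Myh7, Mhrt, Cmtm5, Mir208a and Gm52092. This region held 20027, 22709 and 18595 CPM in NR4A2 hearts, against 22443, 18779 and 14245 CPM in Control hearts. The groups overlapped (log2 fold change 0.16 ± 0.14 SE, limma adjusted p = 0.494). All 4 regions assigned to Myh6 touch Mhrt and Myh7. Among them the region at 54971850 to 54972486, 3833 bp outside Myh6, was higher (0.75 ± 0.23 SE, limma adjusted p = 0.0129). That call ended without Control mouse 3, NR4A2 mouse 2 or NR4A2 mouse 3. All 10 cardiomyocyte marker genes had a region, of which 7 had a higher and 2 a lower one (22 of their 245 regions higher and 4 lower), with summed CPM of 49200 to 59742 in NR4A2 hearts and 37082 to 55793 in Control hearts. Regions were present at 5 of 7 endothelial, 4 of 7 fibroblast, 3 of 7 smooth muscle and pericyte and 1 of 7 immune markers, and Ptprc, Dcn, Myh11 and Tek were among those with none. Among protein-coding genes with a region, 14.2% had a higher and 6.25% a lower one. Counted over all 16884 regions, the shares were 14.7% higher and 3.17% lower. The endothelial markers Pecam1 and Tie1 each had a lower region, and the endothelial list summed to 1965 to 2481 CPM in NR4A2 hearts and 2109 to 2878 CPM in Control hearts. No marker of the fibroblast, smooth muscle and pericyte or immune lists had a called region. The part of these cell types in the results was not tested.

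Retinoid X receptors, the dimer partners of NR4A2, had called regions in opposite directions. Among 15 genes of dimer partners and coregulators, all with a region, 4 had a higher one and 2 a lower one. The shares over all 11154 protein-coding genes with a region are the 14.2% and 6.25% given above. Counted by region, 4 of the 37 regions of these 15 genes were higher and 2 lower, beside 14.7% and 3.17% of all regions. Rxrg, the muscle-enriched receptor, had 23.9, 44.1 and 45.4 CPM in NR4A2 hearts and 20.5, 15.6 and 7.24 CPM in Control hearts (log2 fold change 1.38 ± 0.42 SE, limma adjusted p = 0.0122). Rxra, the main retinoid X receptor of the heart, had 2 regions, of which 1 was called. That region had 77.3, 66.2 and 73.2 CPM in NR4A2 hearts and 111, 97.3 and 150.2 CPM in Control hearts (-0.70 ± 0.21, limma adjusted p = 0.0132). Neither pair of groups overlapped. None of the 3 Rxrb regions was called (-0.30 ± 0.22 in the region with the smallest limma adjusted p, 0.390). These receptors were named after their values had been seen. The Rxrg call ended without Control mouse 3 or NR4A2 mouse 2 or 3, and the Rxra call without Control mouse 3. The corepressor gene Ncor1 (2.67 ± 0.61 SE) and the coactivator gene Ncoa1 (1.65 ± 0.46) also had higher regions, and the coactivator gene Ncoa2 (-1.17 ± 0.28) the other lower one. Leaving out NR4A2 mouse 3 ended the Ncoa1 call (adjusted p = 0.0971), and leaving out Control mouse 3 ended that at Ncoa2 (0.0539).

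Upstream of the family, 22 of 24 genes of factors known to induce or restrain Nr4a transcription had a region. Of these, 6 had a higher one and 5 a lower one, with Nfkb1 and Adrb1 in both counts. The shares over all protein-coding genes with a region were 14.2% and 6.25%. Counted by region, 7 of the 64 regions of these genes were higher and 5 lower, beside 14.7% and 3.17% of all regions. The MEF2 genes Mef2c and Mef2d were among the higher, and Mef2a among the lower. The class IIa histone deacetylases, which hold MEF2 in check, also went both ways, with Hdac4 and Hdac7 among the higher and Hdac5 among the lower. By the smallest adjusted p, the genes named were Nfkb1, an NF-kB subunit (log2 fold change 2.998 ± 0.46 SE), Adrb1, the main adrenergic receptor of the heart (2.12 ± 0.40), Hdac4 (1.66 ± 0.40) and Hdac7 (1.20 ± 0.32). The Adrb1 region lies 4244 bp outside the gene, and leaving out NR4A2 mouse 3 ended the Hdac7 call (adjusted p = 0.0973). Of 22 immediate early genes with a region, out of 24, 3 had a higher one (Jun, Klf2 and Ccn1) and 3 a lower one (Sik1, Junb and Zfp36). Beside 14.2% and 6.25% of all protein-coding genes, the share of genes with a higher region is near the background. Counted by region, 5 of their 78 were higher and 3 lower, beside 14.7% and 3.17% of all regions. Signal rose at Ccn1, which encodes a matricellular protein (2.09 ± 0.46 SE), and fell at Sik1, a kinase that inhibits CREB coactivators (-0.74 ± 0.21), Junb, an AP-1 subunit (-0.65 ± 0.21), and Zfp36, which encodes an mRNA-destabilising protein (-0.54 ± 0.17). Each value is that of 1 region of the gene. At Ccn1, 3 of 5 regions were higher. The lower region was 1 of 4 at Sik1, 1 of 4 at Junb and 1 of 6 at Zfp36. The calls at Sik1, Junb and Zfp36 ended without at least 1 of the mice. The regions named for Ccn1 and Zfp36 lie 3794 and 1625 bp outside those genes.

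Genes reported as NR4A targets in other work had regions in 11 of 21 cases, and 9 of the 11 had a higher region and 0 a lower one (limma; background 14.2 and 6.25% of genes). Their 35 regions had a median log2 fold change of 0.84, beside -0.06 over all regions. This list was chosen with earlier results of these data known and the genes differ in their number of regions, so the count was not tested. Pgam2, muscle phosphoglycerate mutase, had 485, 545 and 468 CPM in NR4A2 hearts and 265, 267 and 306 CPM in Control hearts (log2 fold change 0.84 ± 0.15 SE, limma adjusted p = 1.45e-05), over a region it shares with Dbnl. Eno3, muscle enolase, had 1829, 1824 and 2004 CPM in NR4A2 hearts and 717, 786 and 847 CPM in Control hearts. Its region is 11547 bp long and is shared with Pfn1 and Spag7. Slc2a4, the insulin-responsive glucose transporter, had 93.6, 83.5 and 114 CPM in NR4A2 hearts and 22.5, 13.6 and 19.9 CPM in Control hearts. Bdnf, a neurotrophin gene, had 67.8, 66.2 and 69.4 CPM in NR4A2 hearts and 9.22, 8.76 and 5.43 CPM in Control hearts, 2207 bp outside the gene. NR4A2 hearts were above Control hearts in every mouse at these 4 genes.

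For the strongest region of each member, the regions with the most similar profile over the 6 mice were sought among regions of like signal, by the root mean square difference of log2(CPM + 1) after each region's mean was removed. The Nr4a1 promoter was closest to regions at Csnk1g3 (0.0990), Tmem260 (0.103) and Crip1 (0.109), where the median of 8285 candidates was 0.515. The flat Nr4a2 region was close to regions at Tle5 (0.0641) and Ubtf (0.0685), where the median was 0.355. The upstream Nr4a3 region was closest to Atp8b1, Invs and Cdk19 (0.0820 to 0.119, median 0.438), and the Gt(ROSA)26Sor start to Prss12, Tob1 and Lgals2 (0.0868 to 0.108, median 0.310). With 6 mice and so many candidates, near matches are common, and the measure is a description.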

How the data were processed

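Chromatin immunoprecipitation with sequencing gave 1 table of 16884 regions with 1 column per mouse. Per the submitters' processing notes, BWA was used and the build was GRCm38 (mm10). The sources used here name no peak caller, merging step, counter or filter. The CPM values were deposited by the authors. Every value was a whole multiple of 1 read (100% of values, tolerance 0.001 of a read), so whole reads could be recovered, and the scaling factors beyond reads in regions were 0.991 to 1.01. A change shared by all regions is therefore not visible. How the fly spike-in entered is not given in these sources. The log2 fold change, log2 mean CPM and the p-value and FDR per region are also as deposited by the authors, and the calls in the authors' deposited table had an FDR of at most 0.0499 and a log2 fold change of at least 0.69 in size. Columns were matched to mice by the names in the labels, and the 3 samples without a column (antibody test ChIP and input, pooled input) were not analysed here.

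limma (version 3.58.1, R 4.3.3) with trend and robust moderation was fitted to log2(CPM + 1) of all regions, with no filter. edgeR (4.0.16) on recovered reads called 2574 regions higher and 579 lower. DESeq2 (1.42.0), pseudocounts of 0.5 and 5, a signal filter, no scaling, a replicate block, narrower and wider flanks and leaving out each mouse were alternatives. Steps were tested on simulated data. Summed signal was compared by exact permutation tests, two-sided. The planned ratio of exonic to other Nr4a2 regions was not computed, because the annotation has no exons and all 4 regions touch the span. The mice of 1 group come from separate animals, and no pair of libraries agreed within sampling noise (chi-square per degree of freedom 2.33 to 3.00). Named genes were, per list, up to 4 with the smallest adjusted p, plus all members, and the 3 regions most alike to each member's strongest one. Some results under this rule are not reported here. Members and lists were chosen with earlier results of these data known.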

Additional observations from a re-analysis of the deposited data

How the results depend on the processing

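The groups share mouse numbers, but deviations of same-numbered mice correlated at only -0.066 to 0.061, so the numbers were not taken as pairs. With the mouse number as a replicate block, calls were 2540 and 580 over all regions and 4 and 1 among the members. Restricting the test to regions of at least median signal left 481 higher and 235 lower regions, and 2 and 0 among the members, as 3 member regions fall below that limit and the Nr4a1 promoter then had an adjusted p of 0.0607. Without scaling for depth the counts were 1420 and 17 over all regions (median log2 fold change of all regions -0.11, against -0.06) and 1 and 0 among the members; DESeq2 gave 251 lower regions in the table and 0 among the members. Leaving out 1 mouse gave 1577 to 2332 higher and 270 to 454 lower regions in the table, and 2 to 4 higher and 0 to 2 lower member regions. Without NR4A2 mouse 3 the table's counts were 1577 and 270, and without Control mouse 3 the lower count was 354. Without NR4A2 mouse 1 or Control mouse 1, 2 member regions were higher. The cause was not tested. Directions reversed, without a call, in 2 of 140 comparisons of single member regions: the flat Nr4a2 region ranged from -0.24 to 0.12 with 1 mouse left out (0.12 without NR4A2 mouse 2), and the Atg101-side region of Nr4a1 from -0.47 to 0.032 (0.032 without NR4A2 mouse 3). Calls were lost in 17 and gained in 1. The gain 12 kb into Nr4a2 was called under all 13 alternatives, at 2.53 to 3.50. Summed signals kept their direction at 0 and 50 kb flanks, on unscaled reads and without any 1 mouse, at 0.50 to 0.79 for Nr4a2, -0.67 to -0.41 for Nr4a1, -0.52 to -0.02 for Nr4a3 and 0.59 to 0.71 for Gt(ROSA)26Sor without 1 mouse. Depth limits the regions with under 20 reads per library.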
